A study of Mus musculus with 6 samples.

Results

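The 10 genes described here encode the core of the transforming growth factor beta (TGF-beta) pathway. They were selected by symbol, as the rows named *Tgfb1*, *Tgfbr1*, *Tgfbr2*, *Smad2*, *Smad3*, *Smad4*, *Smad7*, *Ski*, *Nrros* and *Ltbp1*, and all 10 were among the 19225 genes listed. They were measured in cells enriched from brain with beads against CD11b, an integrin subunit of microglia and other myeloid cells. There were 3 libraries labelled Cnr1+/+ (strain label C57BL6/J, genotype label wt/wt) and 3 labelled Cnr1-/- (strain label Cnr1 tm1Zim, genotype label d/d). The *Cnr1* gene encodes the cannabinoid receptor CB1. According to the labels all mice were male and 3 months old, and the methods describe them as littermates that were not stressed, younger than the labels say. The deletion is carried by every cell of the mouse, so a difference in these cells cannot be assigned to CB1 of the cells themselves. The comparison asks whether this pathway differs in microglia of mice without CB1.

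TGF-beta is made as a latent complex, in which the cytokine stays wrapped in its own propeptide until integrins or proteases release it. The free ligand binds a type II receptor, which recruits and phosphorylates a type I receptor. The type I receptor phosphorylates SMAD2 and SMAD3, which join SMAD4, enter the nucleus and bind DNA at the short motif CAGAC. In the brain this signal is known to maintain the adult microglial state, and microglia carry their own anchor for the latent ligand, the transmembrane protein NRROS.

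Libraries were made from the 3′ ends of polyadenylated RNA, and values are cpm, reads scaled by the authors to a common library total. The value of 1 read gave effective library sizes between 7708793 and 10723861 reads. *Cnr1* itself was listed at 0 cpm in the 3 libraries labelled Cnr1+/+ and at 1.41, 1.21 and 1.79 cpm in those labelled Cnr1-/-. This is the reverse of what the labels alone would give for a deleted gene. The paper describes an allele in which a neomycin cassette disrupts the coding region, and it states that microglia scarcely express CB1. A 3′ read need not lie in the disrupted part, and the origin of these few reads was not tested. All directions below are therefore those of the labels. The 8 microglia markers summed to between 13798 and 15944 cpm in every library, and the 7 endothelial and pericyte markers to 25.1 cpm at most. Markers of other brain cells were present as well. Totals per library ranged from 420 to 853 cpm for 6 oligodendrocyte markers and from 298 to 549 cpm for 6 astrocyte markers. For 8 neuron markers the range was 34.8 to 47.3 cpm. The part of these cells in the values of the members was not tested. The library labelled Cnr1-/- replicate 2 stood apart, with 3999 cpm of 8 neutrophil markers against 261 to 515 cpm in the other 5 libraries and 2338 cpm of 6 erythrocyte markers against 136 to 237 cpm. It also held 108 cpm of 5 monocyte markers against 30.3 to 36.0 cpm in the other 5 libraries. These are bulk samples, in which fewer cells of a type and less RNA per cell cannot be told apart.

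Upstream sequence was available for 7 of the 10 genes in the RefSeq windows of build GRCm38.p6, the assembly also called mm10. The 250 bases before the start site were searched for CAGAC on both strands (GTCTG on the strand shown). It was found in 5 of the 9 windows of these genes, which include a further start site each for *Tgfbr1* and *Ltbp1*, and in 42.2% of all 32851 windows of this length. The palindrome GTCTAGAC was in none of the 9 windows (0.167% of all windows). The windows of the ligand, both receptors and the anchor are shown, because these genes make, hold and receive the signal, with CAGAC in capitals where it occurs. For *Tgfb1* the window is chr7:25686752-25687001 on the plus strand, for *Tgfbr1* chr4:47352972-47353221 on the plus strand, for *Tgfbr2* chr9:116175364-116175613 on the minus strand and for *Nrros* chr16:32165595-32165844 on the minus strand.
Tgfb1: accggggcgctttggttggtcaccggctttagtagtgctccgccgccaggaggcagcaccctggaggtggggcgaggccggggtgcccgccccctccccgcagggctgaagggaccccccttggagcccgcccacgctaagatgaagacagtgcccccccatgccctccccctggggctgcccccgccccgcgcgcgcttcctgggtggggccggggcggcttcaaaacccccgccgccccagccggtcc
Tgfbr1: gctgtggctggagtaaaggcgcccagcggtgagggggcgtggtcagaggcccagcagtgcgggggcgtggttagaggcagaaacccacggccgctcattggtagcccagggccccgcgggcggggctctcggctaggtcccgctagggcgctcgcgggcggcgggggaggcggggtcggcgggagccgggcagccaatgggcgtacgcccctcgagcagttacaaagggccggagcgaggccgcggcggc
Tgfbr2: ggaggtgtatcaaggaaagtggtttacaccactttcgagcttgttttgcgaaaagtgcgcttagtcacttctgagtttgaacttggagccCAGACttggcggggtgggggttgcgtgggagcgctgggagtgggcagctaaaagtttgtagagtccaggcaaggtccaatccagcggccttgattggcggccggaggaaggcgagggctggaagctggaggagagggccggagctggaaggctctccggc
Nrros: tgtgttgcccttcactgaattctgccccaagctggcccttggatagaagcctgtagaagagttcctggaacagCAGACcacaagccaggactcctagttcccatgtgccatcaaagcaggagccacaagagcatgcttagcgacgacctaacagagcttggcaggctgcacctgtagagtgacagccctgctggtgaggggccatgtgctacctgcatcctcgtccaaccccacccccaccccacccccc
The motif starts 160 bases before the start site in *Tgfbr2* and 177 bases before it in *Nrros*, and it is absent from the *Tgfb1* and *Tgfbr1* windows shown, which have a GC content of 75.2% and 74.8%. The window of the further *Tgfbr1* start site, which is not shown, holds it 203 bases before that site. A match of 5 letters is a description of the sequence and not evidence of a bound site.

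The receptors and the repressor *Ski* were the most abundant members and the matrix anchor *Ltbp1* was nearly absent. Averaged over the 6 libraries, *Tgfbr1* was measured at 358 cpm, *Ski* at 174 cpm, *Tgfbr2* at 127 cpm and *Nrros* at 105 cpm. *Smad3* followed at 44.4 cpm, *Tgfb1* at 34.6 cpm, *Smad7* at 32 cpm, *Smad4* at 27.7 cpm, *Smad2* at 13.6 cpm and *Ltbp1* at 0.620 cpm. These levels are not divided by transcript length, since reads come from 3′ ends only, so that a long transcript is not counted more often. Divided by the summed exon length, *Tgfbr1* (54.9 cpm per kb), *Ski* (31.2 cpm per kb), *Nrros* (25.1 cpm per kb) and *Tgfbr2* (15.6 cpm per kb) remained the 4 highest, and *Smad3*, *Smad4*, *Smad7* and *Tgfb1* lay between 6.87 and 8.0 cpm per kb. The order of cpm levels held in all 6 libraries for *Tgfbr1* over *Ski*, *Ski* over *Tgfbr2*, *Tgfbr2* over *Nrros*, *Nrros* over *Smad3*, *Smad4* over *Smad2* and *Smad2* over *Ltbp1*. It held in 5 of 6 libraries for *Smad3* over *Tgfb1* and for *Smad7* over *Smad4*, and in 3 of 6 for *Tgfb1* over *Smad7*, whose levels did not differ beyond their spread.

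**Figure D1:**
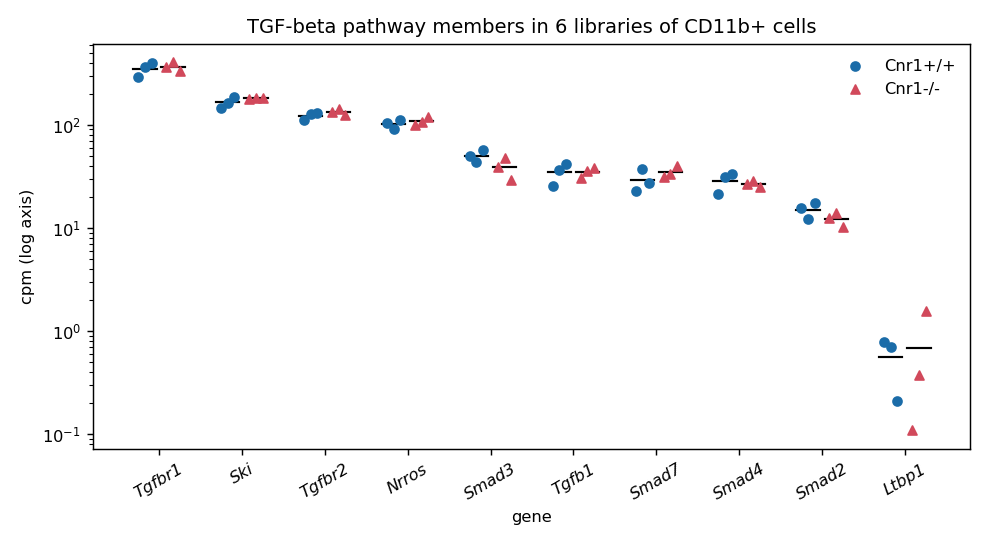
Level of each of the 10 genes in cpm (log axis) in the 3 libraries labelled Cnr1+/+ (circles) and the 3 labelled Cnr1-/- (triangles), with the group mean as a bar. *Tgfbr1* lies highest at a mean of 358 cpm and *Ltbp1* lowest at 0.620 cpm, and the groups overlap for every gene.

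Genotype labels were compared with limma on log2 (cpm + 0.1) for all 6659 genes that averaged 10 cpm or more, with Benjamini-Hochberg adjustment over all of them, and 9 of the 10 members passed this minimum. *Smad3* was the only member with a nominal p under 0.05, which 6.02% of all tested genes reached in either direction and 0.931% as genes lower in the libraries labelled Cnr1-/-. None of the 9 had an adjusted p under 0.1 with limma (0.105% of all tested genes did), and the smallest adjusted p was 0.809. The groups overlapped for all 9, whereas they did not overlap for 11% of the tested genes. Of the 9 log2 fold changes 6 were positive and 3 negative, with a median of 0.07 against 0.08 over all genes tested. The smallest two-sided p that an exact permutation test of 3 libraries against 3 can give is 0.1.

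The ligand gene *Tgfb1* (chromosome 7, 25687002 to 25705077, plus strand of mm10) is the TGF-beta gene that microglia express. Replicates 1 to 3 labelled Cnr1+/+ gave 25.7, 36.5 and 41.6 cpm, and replicates 1 to 3 labelled Cnr1-/- gave 30.2, 35.4 and 38.4 cpm, the order kept for all genes below. All 3 values of the second group lay within the range of the first. The log2 fold change was 0.02 (95% interval -0.36 to 0.41, limma adjusted p = 0.994), so that a change between 0.781-fold and 1.32-fold lies within the interval. The sign of this difference was not stable, and it was negative with each library centred on its median (log2 fold change -0.05).

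*Nrros* (chromosome 16, 32142785 to 32165594, minus strand) encodes the protein that tethers latent TGF-beta 1 to the surface of microglia. It was measured at 103, 91.0 and 111 cpm in the libraries labelled Cnr1+/+ and at 99.1, 106 and 119 cpm in those labelled Cnr1-/-. The groups overlapped almost completely, with a log2 fold change of 0.08 (95% interval -0.19 to 0.36, limma adjusted p = 0.954), which fell to -0.02 when libraries were rescaled without mitochondrially encoded genes. *Nrros* was 2.49 to 4.01 times as abundant in cpm as *Tgfb1* within a library.

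*Ltbp1* (chromosome 17, 75005568 to 75392512, plus strand) encodes a latent TGF-beta binding protein that stores the ligand in the extracellular matrix of other cell types. It was listed at 0.778, 0.698 and 0.210 cpm in the libraries labelled Cnr1+/+ and at 0.108, 0.373 and 1.55 cpm in those labelled Cnr1-/-, which correspond to 6, 7 and 2 reads and to 1, 4 and 13 reads. The lowest and the highest value were both in the second group (two-sided exact permutation p = 0.9). The limit that a count of 0 would allow is 3 reads, which is 0.280 cpm in the deepest library and 0.389 cpm in the shallowest, and 2 of the 6 values lay below it. No difference in *Ltbp1* was detected, and a small one could not be seen at so few reads. No fold change is given.

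Both receptor genes were expressed well above the ligand and kept a nearly fixed proportion. *Tgfbr1* (chromosome 4, 47353222 to 47414931, plus strand) encodes the type I receptor kinase. It reached 291, 364 and 395 cpm under the Cnr1+/+ label and 364, 403 and 333 cpm under the Cnr1-/- label. *Tgfbr2* (chromosome 9, 116084293 to 116175360, minus strand) encodes the type II receptor and had 110, 127 and 131 cpm and 132, 141 and 123 cpm in the same order. Both receptors were lowest in the library labelled Cnr1+/+ replicate 1 and highest in that labelled Cnr1-/- replicate 2. The log2 fold change was 0.07 for *Tgfbr1* (95% interval -0.19 to 0.33, limma adjusted p = 0.955) and 0.11 for *Tgfbr2* (95% interval -0.15 to 0.37, limma adjusted p = 0.941). Changes of more than 1.30-fold in either direction lie outside both intervals. The ratio of *Tgfbr1* to *Tgfbr2*, which does not depend on the scaling between libraries, was 2.85 ± 0.192 (SD, n = 3) for Cnr1+/+ and 2.77 ± 0.0794 (SD, n = 3) for Cnr1-/- labels (two-sided exact permutation p = 0.6). *Tgfbr1* lies 13.4 Mb from *Cnr1* on chromosome 4, and *Ski* lies on the same chromosome at a distance of 121 Mb.

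Of the signal-transducing SMAD genes, *Smad3* had the most negative fold change. *Smad3* (chromosome 9, 63646767 to 63757994, minus strand) encodes a receptor-regulated SMAD that binds DNA. It was measured at 50.3, 43.2 and 56.7 cpm in the libraries labelled Cnr1+/+, or 50.1 ± 6.75 cpm (SD, n = 3), and at 39.2, 47.6 and 29.2 cpm in those labelled Cnr1-/-, or 38.7 ± 9.18 cpm (SD, n = 3). The groups overlapped, because replicate 2 labelled Cnr1-/- lay above replicate 2 labelled Cnr1+/+. It was lower by a log2 fold change of -0.39 (standard error 0.177, 95% interval -0.75 to -0.03). The nominal p from limma was 0.0352 and the adjusted p 0.809, whereas the two-sided exact permutation test of this gene alone gave 0.2. The nominal call rested on single libraries. It was lost when replicate 3 labelled Cnr1-/- was left out, with a log2 fold change of -0.20 (limma nominal p of 0.286), and when replicate 3 labelled Cnr1+/+ was, with -0.30 (nominal p of 0.137). It was also lost without replicate 1 labelled Cnr1+/+ (-0.38, limma nominal p of 0.0552) and without replicate 1 labelled Cnr1-/- (-0.42, nominal p of 0.0545). Leaving out replicate 2 labelled Cnr1-/-, rich in neutrophil and erythrocyte markers, gave -0.56 (limma nominal p of 0.00545, adjusted p = 0.777). With libraries centred on their medians the groups of *Smad3* no longer overlapped and the log2 fold change was -0.47 (limma nominal p of 0.0106, adjusted p = 0.884), in a setting where 5.27% of all tested genes were lower without overlap. The scaling thus moved *Smad3* across the line between overlapping and separate groups, and under neither scaling did it pass the adjusted threshold.

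*Smad2*, on chromosome 18, encodes the other receptor-regulated SMAD of this pathway. It was measured at 15.6, 12.2 and 17.2 cpm in the libraries labelled Cnr1+/+ and at 12.4, 14.1 and 10.1 cpm in those labelled Cnr1-/-. Like *Smad3*, it was highest in replicate 3 labelled Cnr1+/+ and lowest in replicate 3 labelled Cnr1-/-. The groups overlapped and the log2 fold change was -0.29 (95% interval -0.80 to 0.22, limma adjusted p = 0.901). It ranged from -0.43 without replicate 2 labelled Cnr1+/+ to -0.18 without replicate 3 labelled Cnr1+/+ and -0.16 without replicate 3 labelled Cnr1-/-. The ratio of *Smad2* to *Smad3* stayed between 0.282 and 0.347 in all 6 libraries, with 0.298 ± 0.0147 (SD, n = 3) for Cnr1+/+ and 0.320 ± 0.0255 (SD, n = 3) for Cnr1-/- labels (two-sided exact permutation p = 0.4). *Smad4*, also on chromosome 18, encodes the common partner of both. It had 21.1, 31.4 and 33.4 cpm against 26.6, 28.3 and 25.0 cpm, with all 3 values of the libraries labelled Cnr1-/- inside the range of the others (log2 fold change -0.08, 95% interval -0.47 to 0.32, limma adjusted p = 0.974).

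**Figure D2:**
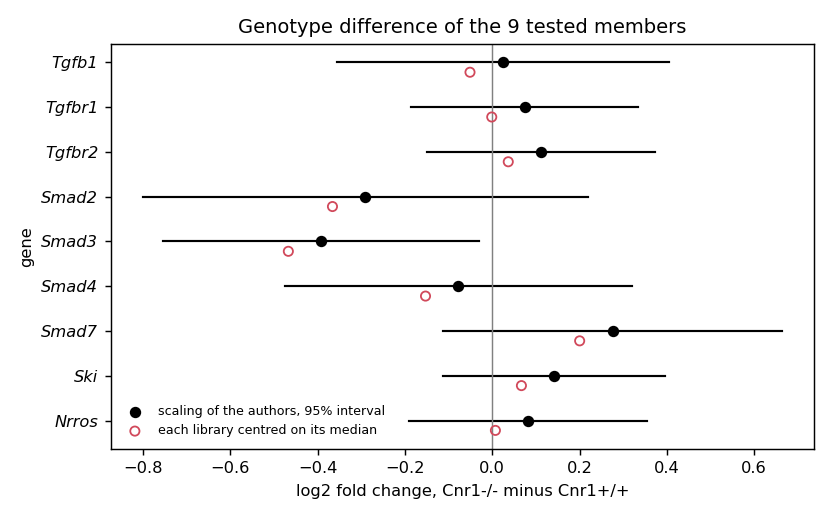
Log2 fold change (libraries labelled Cnr1-/- minus Cnr1+/+) of the 9 members that averaged 10 cpm or more under the scaling of the authors, with the 95% interval of limma (filled), and with each library centred on its median (open). The interval of *Smad3*, from -0.75 to -0.03, is the only one that does not include 0, and centring moves every value to the left.

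The inhibitory members had higher means in the libraries labelled Cnr1-/-, but none passed the test. Under the scaling of the authors 4558 of all 6659 tested genes had a positive log2 fold change, so this direction is not particular to them. *Smad7*, on chromosome 18, encodes the inhibitory SMAD that TGF-beta induces and that targets the type I receptor for degradation. It was measured at 23.0, 37.2 and 27.2 cpm in the libraries labelled Cnr1+/+ and at 31.2, 33.0 and 40.2 cpm in those labelled Cnr1-/-. The lowest 2 values were Cnr1+/+ and the highest was Cnr1-/-, with overlap between them, and the log2 fold change was 0.28 (95% interval -0.11 to 0.66, limma adjusted p = 0.893). The value rested on single libraries. Leaving out replicate 2 labelled Cnr1+/+ gave 0.47 (limma nominal p of 0.0301, adjusted p = 0.814), whereas leaving out replicate 1 labelled Cnr1+/+ gave 0.12 (nominal p of 0.536) and replicate 3 labelled Cnr1-/- 0.17 (nominal p of 0.448). *Ski* (chromosome 4, 155154075 to 155222592, minus strand) encodes a repressor that binds the SMAD complex on DNA. It reached 146, 164 and 186 cpm under the Cnr1+/+ label and 179, 183 and 183 cpm under the Cnr1-/- label. Its values spread over 20.3 cpm (SD, n = 3) in the first group and 2.40 cpm (SD, n = 3) in the second, and the log2 fold change was 0.14 (95% interval -0.11 to 0.40, limma adjusted p = 0.907).

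Ratios between members within a library were compared for 6 pairs, 4 of which have *Smad3* as the denominator, so that they share its values and do not add independent evidence to its difference. The ratio of *Ski* to *Smad3* was 2.89, 3.81 and 3.29 in the libraries labelled Cnr1+/+ and 4.57, 3.86 and 6.25 in those labelled Cnr1-/-. The groups did not overlap, although Cnr1-/- replicate 2 lay only just above Cnr1+/+ replicate 2 (two-sided exact permutation p = 0.1, adjusted p over the 6 ratios = 0.6). The ratio of *Smad7* to *Smad3* was 0.456, 0.861 and 0.481 against 0.796, 0.694 and 1.38, with overlapping groups (two-sided exact permutation p = 0.3, adjusted p = 0.6). The log2 difference between labels was 0.54 for *Ski* to *Smad3* and 0.67 for *Smad7* to *Smad3*. With single libraries left out it ranged from 0.34 to 0.69 and from 0.37 to 0.96, lowest in both without replicate 3 labelled Cnr1-/-. Of the other ratios, *Smad4* to *Smad3* gave a two-sided exact permutation p of 0.4 and *Nrros* to *Tgfb1* one of 0.9.

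**Figure D3:**
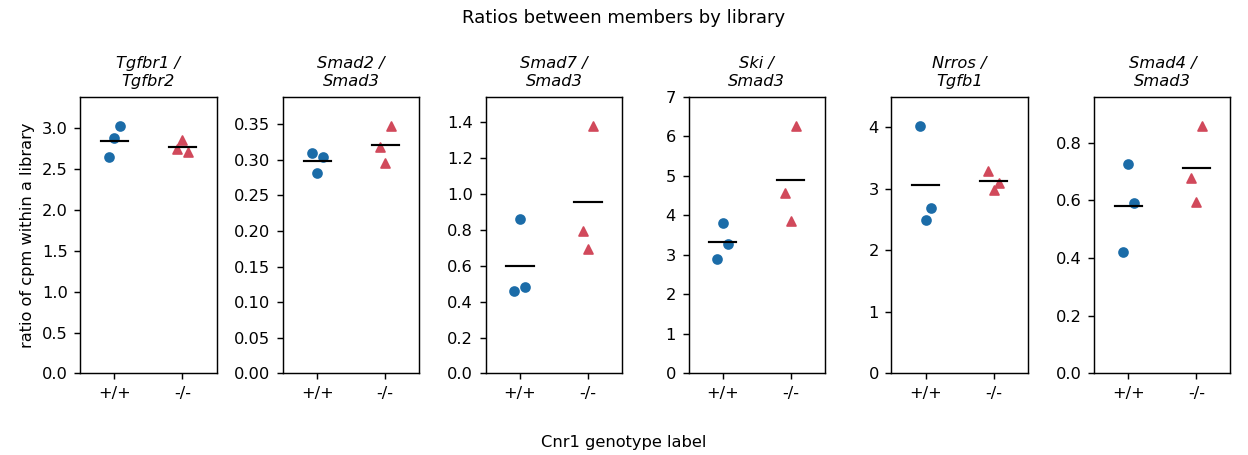
Ratio of cpm between 2 members within each library, for 6 pairs, in the libraries labelled Cnr1+/+ (circles) and Cnr1-/- (triangles), with the group mean as a bar and every axis from 0. Only *Ski* to *Smad3* has groups that do not overlap, and replicate 3 labelled Cnr1-/- gives the highest value, 6.25.

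The members differed in how much they varied between libraries. Within groups the SD on the log2 scale ranged from 0.116 for *Tgfbr2* to 0.286 for *Smad3*. The part of it that counting alone gives ranged from 0.0255 for *Tgfbr1*, with 2242 to 4324 reads per library, to 0.131 for *Smad2*, with 85 to 164 reads. The SD of *Smad3* exceeded that of 72.1% of the tested genes and the SD of *Tgfbr2* exceeded that of 11%. Replicate 1 labelled Cnr1+/+ held the lowest value of 6 of the 9 members and replicate 3 labelled Cnr1+/+ the highest value of 5. The first of these libraries also had the fewest effective reads and the smallest share of its scaled total in listed genes, 50.1% against up to 59.1% elsewhere; the part of this in the members' values was not tested.

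**Figure D4:**
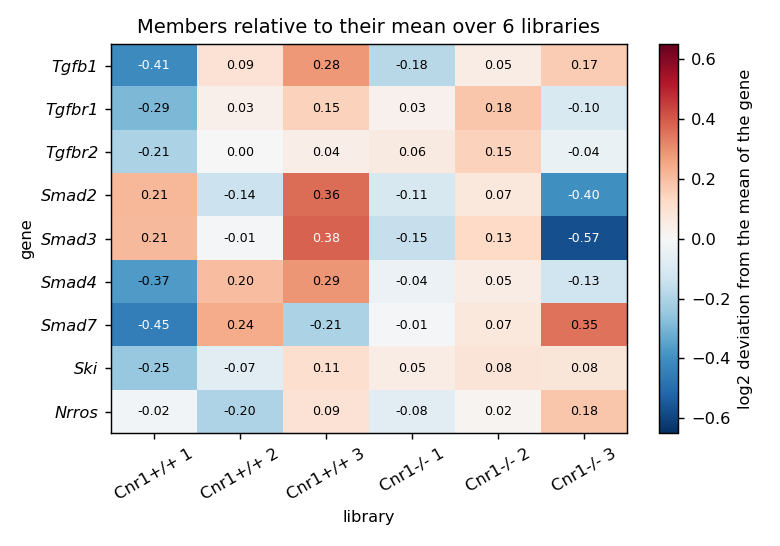
Log2 level of each of the 9 tested members in each library, relative to the mean of that gene over the 6 libraries. *Smad2* and *Smad3* are highest in replicate 3 labelled Cnr1+/+ and lowest in replicate 3 labelled Cnr1-/- (-0.57 for *Smad3*), where *Smad7* is highest (0.35).

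For each tested member the gene with the most similar pattern was taken by Pearson r of log2 values over the 6 libraries. These were *Tmem131l* for *Tgfb1* (r = 0.986), *Bach1* for *Tgfbr1* (r = 0.991), *Ube2n* for *Tgfbr2* (r = 0.995), *Syngr1* for *Smad2* (r = 0.998), *AI413582* for *Smad3* (r = 0.985), *Med8* for *Smad4* (r = 0.988), *Rhobtb1* for *Smad7* (r = 0.985), *Lyrm9* for *Ski* (r = 0.996) and *Ehmt2* for *Nrros* (r = 0.982). Each is the best of all tested genes over 6 points that share the scaling and the depth of their library, and between 5 and 25 genes lay within 0.02 of the best r, so these are descriptions only.

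Among the other genes of the pathway, those that hold and release the ligand were in part too low to test. Of 16 latency and activation genes, 12 were listed and 6 tested, and 0 of the 6 had a nominal p under 0.05 with limma. The share over all tested genes was 6.02%, so that lists of this size need not hold any such gene. The most abundant were the integrin subunits *Itgb5* (286 ± 47.0 and 312 ± 27.8 cpm, SD, n = 3, for Cnr1+/+ and Cnr1-/- labels) and *Itgb1* (62.2 ± 6.54 and 66.6 ± 4.90 cpm, SD, n = 3). Of 13 other ligands of the family, 7 were listed and all lay below the minimum. The most abundant of them were *Tgfb2*, a second TGF-beta isoform, with 0.526 to 3.54 cpm, and *Gdf11*, a ligand of activin receptors, with 0.631 to 2.89 cpm, so that *Tgfb1* was the only ligand of this list and of the members above 10 cpm. Of 11 other receptors 6 were tested, led by the BMP receptor *Bmpr2* (45.2 ± 4.66 and 44.3 ± 2.74 cpm, SD, n = 3) and the co-receptor *Eng* (28.3 ± 3.48 and 24.8 ± 4.66 cpm, SD, n = 3), and 0 had a nominal p under 0.05. The same held for the 9 tested of 13 other SMADs and SMAD partners, led by the coactivators *Crebbp* (133 ± 21.8 and 129 ± 9.82 cpm, SD, n = 3) and *Ep300* (89.2 ± 12.3 and 97.7 ± 9.33 cpm, SD, n = 3). The median log2 fold change of these 3 lists was 0.02, 0.10 and 0.01.

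The negative regulators were led by *Pmepa1*, which encodes a membrane protein that keeps SMAD2 and SMAD3 from the receptor and that TGF-beta itself induces. It was measured at 436, 475 and 513 cpm in the libraries labelled Cnr1+/+ and at 540, 558 and 587 cpm in those labelled Cnr1-/-, more than any of the 10 members. All 3 values of the second group lay above those of the first (log2 fold change 0.25, 95% interval 0.01 to 0.48, limma nominal p of 0.0417, adjusted p = 0.821). Centring each library on its median lowered this to 0.17 (limma nominal p of 0.0673) and quantile normalisation to 0.10 (nominal p of 0.235). The nominal call was also lost without any 1 of the libraries other than replicate 3 labelled Cnr1+/+, with log2 fold changes between 0.19 and 0.27. It was the only 1 of the 12 tested negative regulators with a nominal p under 0.05, against 5.09% of all tested genes that were higher at this threshold. The groups did not overlap for 4 of the 12, all higher in the libraries labelled Cnr1-/-. One of them, the corepressor *Tgif1* (9.15 ± 0.533 and 12.1 ± 1.70 cpm, SD, n = 3), reached 10 cpm only through those libraries, which leaves 3 genes, against 8.85% of all tested genes. These 3 were *Pmepa1*, *Ppm1a*, a phosphatase of SMAD2 and SMAD3 (36.8 ± 4.25 and 44.7 ± 1.28 cpm, SD, n = 3), and *Nedd4l*, a ubiquitin ligase (14.5 ± 2.87 and 19.8 ± 2.69 cpm, SD, n = 3). *Tgif1*, *Ppm1a* and *Nedd4l* were named after their values were seen. The non-overlap count of 4 became 2 with centring (*Ppm1a* and *Pmepa1*, 5.24% of all tested genes), 1 with quantile normalisation (*Ppm1a*, 4.85%) and 2 without mitochondrially encoded genes in the scaling (4.17%). These settings reuse the same 6 libraries. Counts this small among 12 genes were not tested against the share over all genes. *Skil*, a relative of *Ski* and the second most abundant of this list, had 71.6 ± 10.2 and 75.2 ± 6.64 cpm (SD, n = 3) with overlapping groups.

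Of 17 genes that TGF-beta induces in many cell types, 7 were tested, and *Pmepa1* was again the only 1 with a nominal p under 0.05 (6.02% of all tested genes). The list shares *Pmepa1*, *Skil* and *Tgif1* with the negative regulators. Its median log2 fold change was 0.12. Of 16 microglial genes known to need TGF-beta, all were tested and 0 had a nominal p under 0.05 (6.02% of all tested genes), with 8 positive and 8 negative log2 fold changes between -0.13 and 0.21 and a median of 0.00 (0.08 over all tested genes). The most abundant were the fractalkine receptor *Cx3cr1* (5096 ± 484 and 5055 ± 119 cpm, SD, n = 3) and *Sparc* (2299 ± 224 and 2280 ± 161 cpm, SD, n = 3), a secreted matrix protein.

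Genes known to be higher in microglia that lack TGF-beta signalling had lower values under the Cnr1-/- label wherever a nominal p was under 0.05. Of 13 such genes 10 were tested, with 7 negative and 3 positive log2 fold changes (at most 0.14), and 4 had a nominal p under 0.05 and were lower. One of the 4, *Axl*, reached the minimum of 10 cpm only through the libraries labelled Cnr1+/+ (means of 15.9 and 9.17 cpm), which leaves 3 genes. Over all tested genes 0.931% were lower at this threshold, and 6.02% were called in either direction. The share of lower genes depends on the scaling, with 62 genes lower under the scaling of the authors and 178 to 212 under the 3 other scalings. The list was chosen with earlier results of these data known, so the count of 3 is a description only. *Apoe*, a lipid carrier gene and the most abundant of the list, had 513 ± 31.0 and 475 ± 74.8 cpm (SD, n = 3) with overlapping groups (log2 fold change -0.12, limma adjusted p = 0.916). The 4 genes were *Cd74* and *H2-Aa* of the MHC class II pathway, *Pf4*, a chemokine gene of border-associated macrophages, and the receptor kinase gene *Axl*. *Cd74* reached 45.3, 50.9 and 46.6 cpm under the Cnr1+/+ label and 26.3, 37.5 and 32.7 cpm under the Cnr1-/- label (log2 fold change -0.58, limma nominal p of 0.00195, adjusted p = 0.481). *H2-Aa* had 46.8, 50.7 and 43.1 cpm against 31.5, 33.1 and 36.0 cpm (log2 fold change -0.48, limma adjusted p = 0.632). For these 2 genes and for *Pf4* (20.9, 16.3 and 23.1 cpm against 14.8, 12.8 and 15.3 cpm, log2 fold change -0.48, limma adjusted p = 0.809) the groups did not overlap, against 2.13% of tested genes that were lower without overlap. Under the 3 other scalings this background was 5.27%, 5.63% and 6.42%, and 3 genes of the list were again lower without overlap. *Axl* ranged from 6.28 to 23.7 cpm with overlapping groups, and leaving out replicate 1 labelled Cnr1+/+ changed its log2 fold change from -0.76 (limma nominal p of 0.0206) to -0.43 (nominal p of 0.209), and replicate 1 labelled Cnr1-/- to -0.52 (nominal p of 0.126). The call of *Pf4* was lost without replicate 1 or 3 labelled Cnr1+/+ and without replicate 1 or 2 labelled Cnr1-/-, with log2 fold changes between -0.51 and -0.37, whereas those of *Cd74* and *H2-Aa* were kept in every setting tried. None of the 4 passed the adjusted threshold. The list shares *Pf4*, *Mrc1*, *Cd163*, *Lyve1* and *Ms4a7* with the 7 markers of border-associated macrophages. These markers summed to 114 to 148 cpm in the libraries labelled Cnr1+/+ and 96.4 to 127 cpm in those labelled Cnr1-/-, and of the 6 tested only *Pf4* itself had a nominal p under 0.05. Their part in these differences was not tested.

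**Figure D5:**
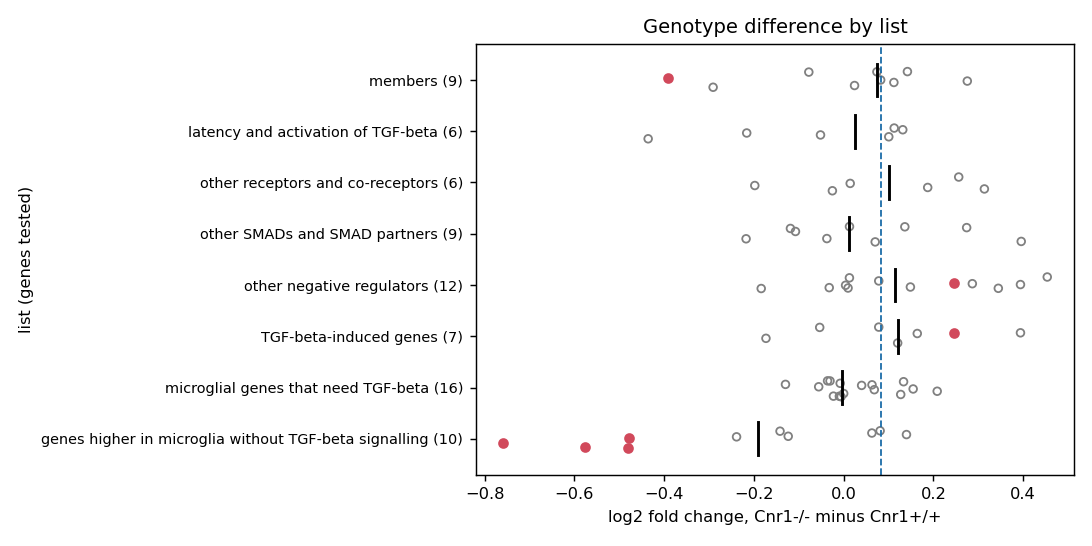
Log2 fold change (libraries labelled Cnr1-/- minus Cnr1+/+) of the tested genes of each list, 1 point per gene, filled where the limma nominal p is under 0.05, with the median of the list as a black bar and the median of all tested genes (0.08) as a dashed line. The 4 filled points on the lowest line, between -0.76 and -0.48, are *Axl*, *Cd74*, *H2-Aa* and *Pf4*.

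The direction of small differences depended on the scaling between libraries. Under the scaling of the authors 84.5% of the 401 genes with a nominal p under 0.05 were higher in the libraries labelled Cnr1-/-. The share was 52.5% of the 375 genes called after centring of the library medians, 45.3% of the 360 called after quantile normalisation and 40.1% of the 354 called after the mitochondrially encoded genes had been left out of the scaling, each setting having its own set of called genes. The median log2 fold change of all tested genes was 0.08, 0.01, 0.00 and -0.02 in turn. The differences of *Tgfb1*, *Tgfbr1* and *Nrros* were no larger than this shift, whereas those of *Smad3*, *Smad2* and *Smad7* exceeded it and kept their sign.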

How the data were processed

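RNA of cells enriched with CD11b beads from brains of 3 male mice labelled Cnr1+/+ and 3 labelled Cnr1-/- was sequenced from 3′ ends, 1 library per mouse. The authors aligned trimmed reads to mm10 with STAR 2.6.1d, assigned them to genes of Ensembl release 99 with an expectation-maximisation step and scaled them with TMM. The deposited values are CPM per gene on that scale, of which genes in the table carry 50.1% to 59.1%. Columns were assigned to mice by the sample descriptions, with 0 left over. Between 82.1% and 84.8% of the values above 0 were whole multiples of 1 read (tolerance 0.01 reads), so tests for counts were not used in the main comparison.

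Genotype labels were compared with limma 3.58.1 in R 4.3.3 (eBayes with trend, genotype only) on log2 (value + 0.1) where a gene averaged 10 or more, with Benjamini-Hochberg adjustment, and with two-sided exact permutation tests for ratios and for the gene below that minimum. Intervals and read limits cover the spread between these libraries and counting error, respectively. The steps were tested on simulated data. The members and lists were chosen with earlier results of these data known. Named genes are the members, list genes with a nominal p under 0.05, the 2 most abundant genes of each list and the gene most alike to each tested member, besides *Ppm1a*, *Nedd4l* and *Tgif1*, chosen after their values were seen, and markers shared between lists. Of the list symbols absent from the table, *Cyr61* was matched through a RefSeq synonym. No listed gene overlaps a member. Gene coordinates are from GENCODE vM21. Plots used Python 3.11.15 and matplotlib 3.10.9.

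Alternatives were the omission of each single library, a block for the replicate number, scaling by the median of each library, by quantiles or without mitochondrially encoded genes, a pseudocount of 1 or 0.0001, a minimum mean of 20 or none, limma voom on derived reads, eBayes without trend, and ordinary least squares without shrinkage.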

Additional observations from a re-analysis of the deposited data

How the results depend on the processing

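The number of members with a nominal p under 0.05 was 1 (*Smad3*). It was 0 with eBayes without trend (limma nominal p of 0.0813) and 0 in the model without shrinkage (nominal p of 0.168), ranged from 0 to 2 with each library left out in turn, and stayed at 1 in the other settings. No member passed an adjusted p of 0.1 in any setting (0 in each). Same-numbered libraries did not deviate together (correlations of -0.06, -0.03 and -0.03 between their deviations from the group means), so the numbers pair nothing; with the replicate number as a block 1 member passed, the log2 fold change of *Smad3* stayed at -0.39 (nominal p of 0.0374), and 421 genes passed in place of 401. Over all genes, 993 passed at the nominal threshold without a filter and 263 at a minimum mean of 20. With single libraries left out the count ranged from 251 without replicate 2 labelled Cnr1-/- to 600 without replicate 3 labelled Cnr1+/+. The 7 genes past the adjusted threshold became 15 without a filter and 0 with centring, quantile normalisation, scaling without mitochondrially encoded genes, eBayes without trend or no shrinkage, and 1 to 24 with single libraries left out. Among the lists the nominal count ranged from 0 to 1 for latency and microglial genes and for SMAD partners, 0 to 2 for receptors and induced genes, 0 to 3 for negative regulators and 2 to 5 for genes higher without TGF-beta signalling.

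Small differences changed sign. For *Tgfb1* the log2 fold change was -0.0511 with centring, -0.0597 with quantile normalisation, -0.0748 without mitochondrially encoded genes in the scaling and -0.00015 with limma voom, and for *Tgfbr1* -0.00125, -0.0335 and -0.0253 in the first 3 of these. For *Nrros* it was -0.00039 in the second and -0.0168 in the third of these. Omission of single libraries gave ranges from -0.18 to 0.17 for *Tgfb1*, -0.0538 to 0.17 for *Tgfbr1* and -0.28 to 0.0472 for *Smad4*, and the log2 ratio ranged from -0.0907 to 0.00608 for *Tgfbr1* to *Tgfbr2* and from -0.0735 to 0.27 for *Nrros* to *Tgfb1*. *Smad2*, *Smad3*, *Smad7*, *Ski* and *Tgfbr2* kept their sign in every setting in which they were tested. The size was less stable. *Tgfbr2* fell from 0.11 to 0.04 with centring, 0.02 with quantile normalisation and 0.01 without mitochondrially encoded genes in the scaling. *Ski* fell from 0.14 to 0.07, 0.06 and 0.04 in the same settings. *Smad2* was not tested at a minimum mean of 20, and *Ltbp1* only entered without a filter.

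With 3 mice per label, the 95% intervals of the members on the log2 scale spanned from 0.51 (*Ski*) to 1.02 (*Smad2*). *Ltbp1*, with 1 to 13 reads per library, has no interval.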
